A study of Mus musculus with 4 samples.

Results

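The genes described here encode cargo proteins of the dense-core secretory granule and the enzymes that cut and modify prohormones inside it. They were the 10 genes *Chga*, *Chgb*, *Scg2*, *Scg3*, *Scg5*, *Pcsk1*, *Pcsk2*, *Cpe*, *Vgf* and *Pam*, and their members in the data were the ATAC-seq peaks whose annotated gene name was 1 of the 10. ATAC-seq marks open chromatin by inserting sequencing adapters into accessible DNA with a transposase. It was done in LβT2 (LbT2b in the sample titles), an established line of mouse cells that resembles the pituitary gonadotrope, at 50000 cells per reaction. The line was held overnight without serum and then given vehicle or 1 nM activin A, a ligand of the TGFβ family, for 6 h, with 2 libraries per treatment. Nothing in the labels says that the libraries came from separate cultures, so each p-value below measures only the spread between these 4 libraries, which may be technical. Peaks named for the 10 genes numbered 43 of 83344 in vehicle library 1, 82 of 178358 in vehicle library 2, 44 of 85112 in activin library 1 and 38 of 70692 in activin library 2. Merged across libraries wherever they overlapped, they made 119 regions out of 255101.

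Endocrine cells store peptide hormones in dense-core granules that bud from the trans-Golgi network and fuse with the plasma membrane on stimulation. Granins aggregate with the hormones in the acidic, calcium-rich Golgi lumen and help the granule to form. Prohormone convertases then cut precursors at paired basic residues, a carboxypeptidase trims the exposed basic residues, and an amidating enzyme modifies the C-terminus of many peptides. Gonadotropes hold their gonadotropins in granules that contain chromogranins and secretogranin II, and secretogranin II is itself cut to secretoneurin.

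Each peak carries a −log10 q, the authors' significance of the peak against local background, in which a larger number is a firmer peak. A value of 5 or more is called strong here. Density is the number of high-quality autosomal reads over the library's own interval, per kb and per 1000000 such reads of that library. Positions are those of GRCm38, and a distance is from the region's centre to the annotated start site of the gene, negative upstream. The libraries held between 172146474 and 224226184 high-quality autosomal reads. Start-site enrichment of the reads was higher in both activin libraries (3.12 and 3.04) than in both vehicle libraries (2.72 and 2.48), and vehicle library 2 had more peaks than any other library. Of 9 gonadotrope marker genes, 6 had a peak within 1 kb of the start site in all 4 libraries (*Lhb*, *Cga*, *Gnrhr*, *Nr5a1*, *Gata2* and *Tgfbr3l*), and *Fshb* had none in any library. Of 18 markers of other pituitary lineages, stellate or stem cells, fibroblasts, blood and endothelium, 2 did (*Neurod1* and *Cdh5*), and 9 had none in any library. Bulk data cannot tell fewer cells with an open site from less opening per cell.

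The start sites of the granins and of *Pcsk1* are shown first, because they hold a feature that the choice of genes did not use and differ in whether a peak lay over it. RefSeq windows of 300 bases, from 250 before to 50 after the RefSeq start, were at hand for 8 of the 10 genes, all but *Cpe* and *Vgf*. Capitals mark TGACGTCA, the palindromic cAMP response element, and the motif TATAAA. The shorter part of the element, TGACG, is in capitals too, as is its reverse complement, and it also lies within each full element. The windows are from GRCm38.p6 at chr1:79439977-79440276 (minus strand) for *Scg2*, chr2:132781392-132781691 (plus) for *Chgb*, chr12:102554691-102554990 (plus) for *Chga* and chr13:75089607-75089906 (plus) for *Pcsk1*.
Scg2: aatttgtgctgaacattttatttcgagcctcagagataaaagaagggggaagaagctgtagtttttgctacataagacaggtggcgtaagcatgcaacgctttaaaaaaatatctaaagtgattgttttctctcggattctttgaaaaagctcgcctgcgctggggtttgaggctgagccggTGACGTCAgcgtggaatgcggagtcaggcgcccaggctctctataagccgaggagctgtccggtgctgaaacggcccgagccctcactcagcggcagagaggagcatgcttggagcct
Chgb: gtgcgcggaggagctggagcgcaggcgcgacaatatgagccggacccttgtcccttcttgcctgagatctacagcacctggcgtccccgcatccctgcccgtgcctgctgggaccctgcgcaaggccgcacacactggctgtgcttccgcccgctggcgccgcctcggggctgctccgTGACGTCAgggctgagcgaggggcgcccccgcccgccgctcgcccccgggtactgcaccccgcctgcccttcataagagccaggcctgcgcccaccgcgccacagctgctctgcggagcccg
Chga: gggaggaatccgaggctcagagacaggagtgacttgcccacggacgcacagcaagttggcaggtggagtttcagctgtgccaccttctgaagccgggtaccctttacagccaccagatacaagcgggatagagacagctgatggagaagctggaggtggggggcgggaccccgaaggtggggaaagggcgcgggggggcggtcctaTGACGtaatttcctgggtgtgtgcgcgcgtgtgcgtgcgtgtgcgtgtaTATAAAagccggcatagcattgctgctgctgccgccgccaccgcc
Pcsk1: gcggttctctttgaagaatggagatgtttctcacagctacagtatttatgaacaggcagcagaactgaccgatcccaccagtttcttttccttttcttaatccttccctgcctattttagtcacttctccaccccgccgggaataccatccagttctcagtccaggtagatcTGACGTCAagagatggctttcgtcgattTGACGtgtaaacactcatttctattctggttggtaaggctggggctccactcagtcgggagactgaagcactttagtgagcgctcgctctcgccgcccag

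The full element TGACGTCA was present in 3 of the 8 windows, those of *Scg2*, *Chgb* and *Pcsk1*, against 1.88% of 27025 RefSeq promoter windows of the same length. It began 68 bases before the RefSeq start of *Scg2* and 72 bases before that of *Chgb*. At both genes the element lay inside the called peak in all 4 libraries, whereas no library had a peak over any base of the *Pcsk1* window. The shorter TGACG was present on either strand in 7 of 8 windows, all but that of *Pam*, against 21.0% of all windows. The *Chga* window held TGACG and was alone among the 8 in holding TATAAA (14.2% of all windows). That TATAAA began 5 bases after the RefSeq start, not before it. The GC box GGGCGG was in 6 of 8 windows against 35.9% of all, and the E-box CANNTG in 6 of 8 against 72.1%. No window held the AP-1 site TGANTCA (7.93% of all), the SMAD palindrome GTCTAGAC (0.211%), CAGACA (21.0%) or the steroidogenic factor site CAAGGTCA (1.53%), each searched on both strands. The windows ranged from 49.3% GC at *Pcsk1* and 50.7% at *Scg2* to 76.3% at *Pcsk2* and *Pam*, taking the first of the pair of *Pam* windows in the table, around a median of 52.7% over all windows. The other *Pam* window, chr1:98095583-98095882, was 77.3% GC and held no E-box. These are matches of letters and were not measured as binding.

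Start sites differed among the 10 genes. Peaks stood within 1 kb of the start site in all 4 libraries at *Chgb*, *Scg2*, *Scg3*, *Scg5* and *Cpe*, where they were strong in each library, and at *Chga* and *Pcsk2*, where they were not. *Vgf* had a promoter-annotated region in all 4 libraries at 3.90 kb, and within 1 kb a peak in vehicle library 2 alone. *Pcsk1* had no peak within 1 kb of its start site in any library. *Pam* had none there under its own name, although its RefSeq start was covered. Counting only peaks of the gene's own name within 1 kb, which leaves out *Pcsk2*, 6 of the 10 genes had one in all 4 libraries, against 23% of the 35667 genes with any peak. The plot of promoter peaks by library gives both measures side by side.

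**Figure D1:**
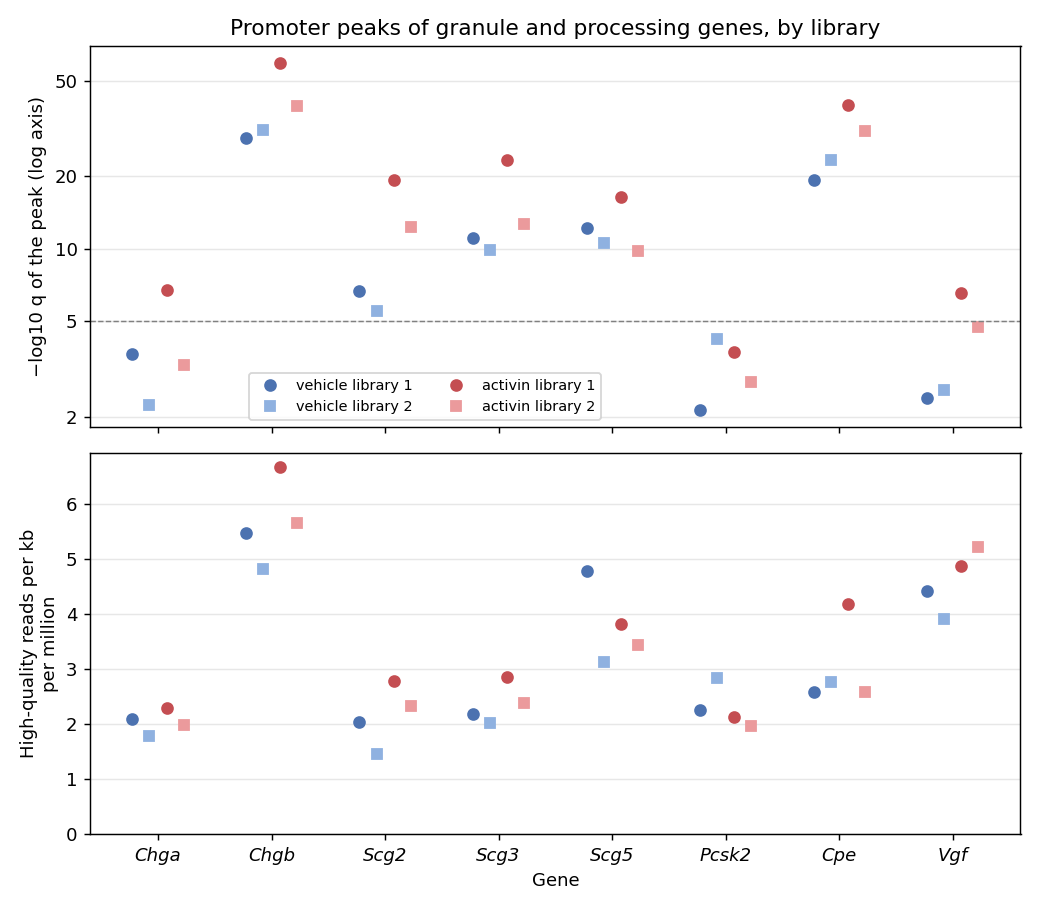
Promoter peaks of the 8 genes that had one in all 4 libraries. The upper panel plots −log10 q on a log axis with the threshold of 5 dashed, the lower panel plots density in high-quality reads per kb per 1000000, and each point is 1 library. *Chgb* was highest in all 4 libraries by −log10 q (28.9 to 59.0), and the activin pair lay above the vehicle pair in the upper panel at *Chgb*, *Scg2*, *Scg3*, *Cpe* and *Vgf*.

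Among the granins, *Chgb* (ENSMUSG00000027350), which encodes chromogranin B, had the strongest promoter peak. It lay at chr2:132781166-132782092 over exon 1 of 5, with −log10 q of 28.9 and 31.1 in vehicle libraries 1 and 2 and 59.0 and 39.3 in activin libraries 1 and 2. High-quality reads over it numbered 749, 809, 1299 and 932 in the same order. Its density was 5.46 and 4.82 with vehicle, against 6.66 and 5.65 with activin, means of 5.14 ± 0.452 and 6.15 ± 0.714 (SD, n = 2). Both activin libraries were thus above both vehicle libraries by either measure. Its fold over the peak caller's background, an authors' value, ranked between percentiles 90.4 and 97.0 of promoter peaks of the same library. The density ranked between percentiles 89.6 and 94.6.

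The density of most regions was somewhat higher in the activin libraries: before centring, the median over 13871 shared regions was 0.27 higher on the log2 scale. Shared regions are those with 1 peak in each library whose common part is at least 50% of their union. The test therefore centred each library on its median over shared regions, and log2 changes of shared regions are relative to that median. A fit over all 28977 regions with a peak in each library serves below for regions outside the shared set. It was centred on the median of those regions, and shared regions read higher there. The *Chga* promoter, for example, gave −0.14 in the shared fit and −0.03 in the other. On the scale of the shared fit the *Chgb* promoter stood at −0.02 ± 0.10 (SE; limma adjusted p = 0.974), and at 0.26 without the centring on shared regions. After centring the treatments overlapped, and they did not separate by this test.

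*Scg2* (ENSMUSG00000050711) encodes secretogranin II, the granin that is cut to secretoneurin. Its promoter peak at chr1:79439803-79440462 had −log10 q of 6.70 and 5.54 with vehicle, against 19.3 and 12.3 with activin. Density was 2.04 and 1.45 with vehicle, against 2.79 and 2.33 with activin, means of 1.74 ± 0.414 and 2.56 ± 0.320 (SD, n = 2). Both activin libraries exceeded both vehicle libraries on both measures. The 4 called intervals shared only 41.5% of their union, since that of vehicle library 1 was 274 bases long and the others were 549 to 658, so the region was outside the shared set. In the fit over all 28977 regions with a peak in each library its log2 change was 0.40 ± 0.19 (SE; limma adjusted p = 0.542). This was the largest positive value among the 8 promoters in that fit, and it did not pass the test. The change stayed positive when any 1 library was left out (0.24 to 0.56) and when reads were not divided by interval length (0.65). It was lowest without vehicle library 2.

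*Chga* (ENSMUSG00000021194), which encodes chromogranin A, had a promoter peak of 1333 to 1541 bases at chr12:102554091-102555631. The peak reached a −log10 q of 3.66 and 2.25 with vehicle, against 6.76 and 3.29 with activin, strong in activin library 1 alone, and the treatments overlapped. High-quality reads numbered 482, 607, 792 and 474. Its density of 2.10, 1.79, 2.29 and 1.98 gave means of 1.94 ± 0.220 for vehicle and 2.14 ± 0.221 for activin (SD, n = 2). After centring the log2 difference was −0.14 ± 0.14 (SE; limma adjusted p = 0.765), and 0.14 without the centring on shared regions. By fold it ranked between percentiles 13.2 and 30.4 of promoter peaks and by density between 27.8 and 45.1, far below *Chgb* in the same libraries.

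The genes for granule sorting and convertase control came next. *Scg3* (ENSMUSG00000032181) encodes secretogranin III, which tethers granin aggregates to the granule membrane. Its promoter peak at chr9:75683558-75684209, over exon 1 of 12, was the gene's single region in all 4 libraries. Libraries gave a −log10 q of 11.1 and 9.90 with vehicle, against 23.4 and 12.7 with activin. Before centring, density did not overlap between treatments, at 2.18 and 2.02 with vehicle, against 2.86 and 2.38 with activin (2.10 ± 0.117 and 2.62 ± 0.341, SD, n = 2). After centring the treatments overlapped. The centred log2 change was 0.04 ± 0.13 (SE; limma adjusted p = 0.948), and 0.31 with centring on all high-quality reads.

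*Scg5* (ENSMUSG00000023236) encodes 7B2, the chaperone that convertase 2 needs to mature. Its promoter peak at chr2:113828580-113829393 had −log10 q of 12.2 and 10.5 with vehicle, against 16.5 and 9.79 with activin, with the activin libraries on both sides of the vehicle libraries. Density was 4.78 and 3.13 with vehicle, against 3.81 and 3.43 with activin (3.96 ± 1.16 and 3.62 ± 0.270, SD, n = 2), also overlapping. The interval was called at 339 and 489 bases with vehicle and at 814 and 666 with activin. Its log2 change in the fit over all 28977 regions was −0.27 ± 0.16 (SE; limma adjusted p = 0.603), and 0.43 when reads were not divided by interval length, so its direction depended on that division. It was −0.10 with centring on all high-quality reads, −0.051 without vehicle library 1 and −0.49 without vehicle library 2.

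Of the convertases, *Pcsk1* (ENSMUSG00000021587) encodes PC1/3, which makes the first cuts in many prohormones, and *Pcsk2* (ENSMUSG00000027419) encodes PC2, which cuts further. *Pcsk1* had 8 regions, none of them in all 4 libraries, and the nearest was 67.2 kb from its start site. *Pcsk2* had a promoter region at chr2:143545368-143546215 that was annotated to its transcript in all 4 libraries, although 3 of the 4 peaks carried the gene name *Pcsk2os1*, an overlapping antisense gene. Called −log10 q values were 2.15 and 4.22 with vehicle, against 3.73 and 2.80 with activin, and its highest value was below the highest value of each of the other 7 promoters. High-quality reads numbered 117 and 107 over intervals of 301 and 171 bases with vehicle, and 394 and 273 over 825 and 780 bases with activin. Density was therefore lower in both activin libraries (2.13 and 1.97) than in both vehicle libraries (2.26 and 2.83), while more reads lay in their longer intervals. The log2 change was −0.48 ± 0.20 (SE; limma adjusted p = 0.530) in the fit over all 28977 regions, and 1.18 when reads were not divided by interval length. It was −0.31 with centring on all high-quality reads, −0.73 without vehicle library 1 and −0.23 without vehicle library 2. The 4 intervals shared 11.0% of their union, so neither value compares the same bases.

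*Cpe* (ENSMUSG00000037852) encodes carboxypeptidase E, which removes the basic residues that the convertases leave. Its promoter peak at chr8:64692225-64693368, over exon 1 of 9, had −log10 q of 19.3 and 23.3 with vehicle, against 39.6 and 30.8 with activin. By fold it ranked between percentiles 96.7 and 99.3 of promoter peaks of the same library, but by density between 43.7 and 75.6. Reads numbered 330 and 365 with vehicle, against 654 and 482 with activin. Density was 2.58 and 2.76 with vehicle, against 4.17 and 2.58 with activin, so that by density activin library 1 stood alone and the others lay close together (2.67 ± 0.126 and 3.38 ± 1.13, SD, n = 2). The intervals were 744 and 599 bases with vehicle, against 699 and 1050 with activin, and shared 52.4% of their union. The centred log2 change of 0.02 ± 0.19 (SE; limma adjusted p = 0.979) became 0.30 with centring on all high-quality reads, −0.28 without activin library 1, −0.11 without vehicle library 1 and 0.33 without activin library 2. It was 0.23 when reads were not divided by interval length.

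*Pam* (ENSMUSG00000026335) encodes the enzyme that amidates peptide C-termini. Peaks named for it made 4 regions, each in 1 library alone, with no peak in activin library 1. The annotated start site lay 37.8 kb from the RefSeq start, and the RefSeq start was covered in all 4 libraries by a region at chr1:98094940-98096182 that was annotated as a *Pam* promoter but named for *1810006J02Rik*. That region had −log10 q of 1.84 and 3.0 with vehicle, against 5.05 and 2.16 with activin, and its density was 1.11, 1.18, 1.34 and 1.62. It is described here because it covers the start site and is not counted among the 119. It was chosen after its values were seen.

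*Vgf* (ENSMUSG00000037428) encodes a granule protein that is cut into several peptides. Its start site lay between regions rather than under one. A region at chr5:137030095-137030492, 3.90 kb into the gene and annotated as a promoter of *Vgf*, had −log10 q of 2.40 and 2.59 with vehicle, against 6.55 and 4.72 with activin. Density there was 4.41 and 3.91 with vehicle, against 4.87 and 5.21 with activin (4.16 ± 0.356 and 5.04 ± 0.239, SD, n = 2). By fold the peak ranked between percentiles 2.68 and 13.5 of promoter peaks of the same library, but by density between 83.2 and 88.9. The region's intervals shared 35.9% of their union. Its log2 change in the fit over all 28977 regions was 0.11 ± 0.11 (SE; limma adjusted p = 0.747). It was 0.28 with centring on all high-quality reads, 0.011 without division by interval length, 0.17 without activin library 1 and 0.048 without activin library 2. A second region at chr5:137024648-137025675, 1.23 kb upstream of the annotated start site, spanned the RefSeq 5′ end of the gene. It had no peak in vehicle library 1 and −log10 q of 1.80, 5.43 and 3.88 in vehicle library 2 and activin libraries 1 and 2. The last part of the gene lay under a stronger region named for the neighbouring *Ap1s1* at chr5:137031333-137033113, with −log10 q of 10.8 and 6.34 with vehicle, against 11.3 and 8.68 with activin, which was singled out after its values were seen.

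**Figure D2:**
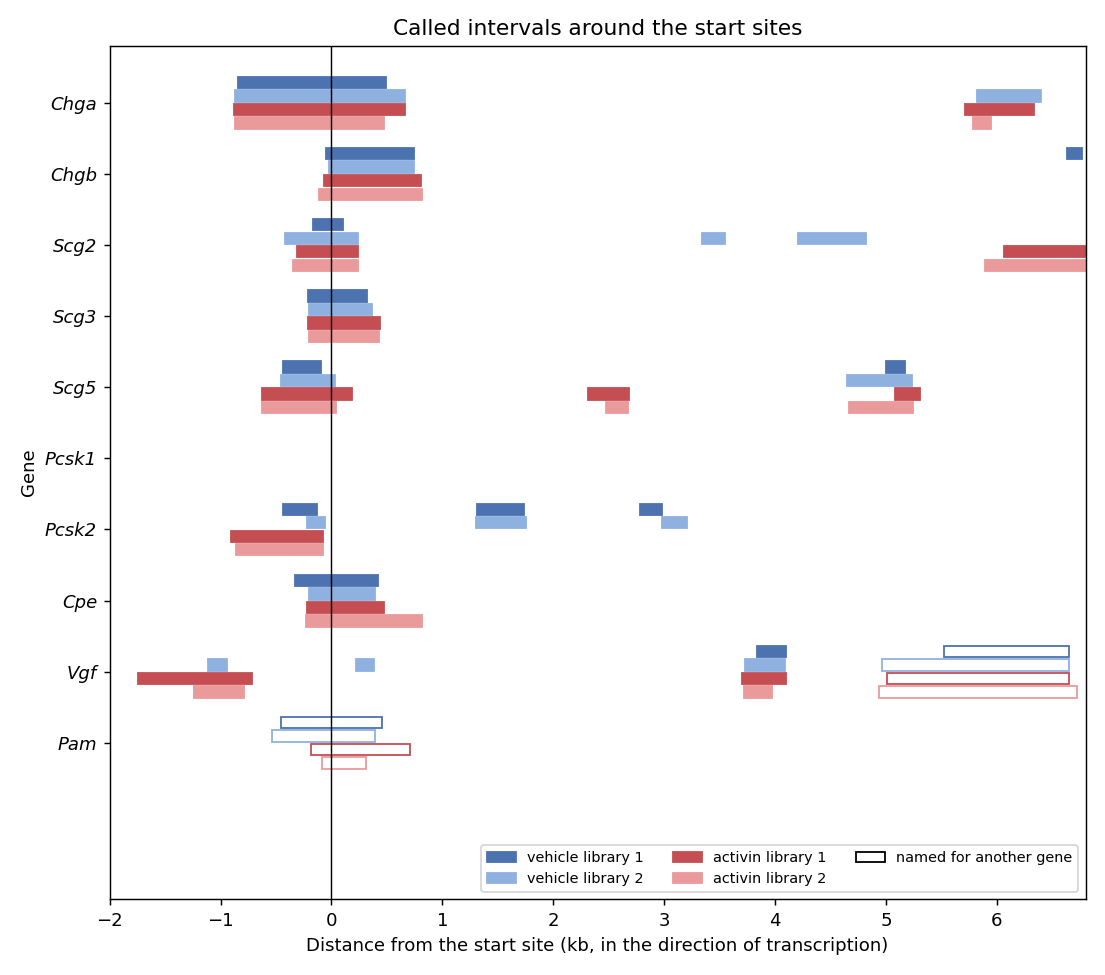
Intervals called as peaks around the start site of each gene, in kb along the direction of transcription, with 1 row of bars per library. Filled bars are regions counted for the gene, including *Pcsk2* peaks named for *Pcsk2os1*. Open bars are regions named for another gene, including that annotated as the *Pam* promoter. The start site is the annotated one, except for *Pam*, where it is that of RefSeq. The *Chga* and *Chgb* intervals nearly coincide in the 4 libraries, those of *Scg2*, *Scg5* and *Pcsk2* differ in length, and *Pcsk1* has none.

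Regions away from start sites made up most of the set. Of the 119 regions, 46.2% were intergenic (47.7% of all regions), 40.3% intronic (38.0%) and 5.04% exonic (4.65%), and 68.9% lay within 50 kb of the start site (71.9%). *Scg2* had 28 regions and *Pcsk2* 27, against 14 for *Chgb*, 13 each for *Chga* and *Scg5*, 8 for *Pcsk1*, 6 for *Cpe*, 5 for *Vgf*, 4 for *Pam* and 1 for *Scg3*. Most of these numbers came from regions with a peak in 1 library alone, 76 in all, of which vehicle library 2 gave 43. Their −log10 q was 1.03 to 6.63 with a median of 1.43. Peaks in 1 library alone made 63.9% of the granule and processing regions and 67.4% of all regions.

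**Figure D3:**
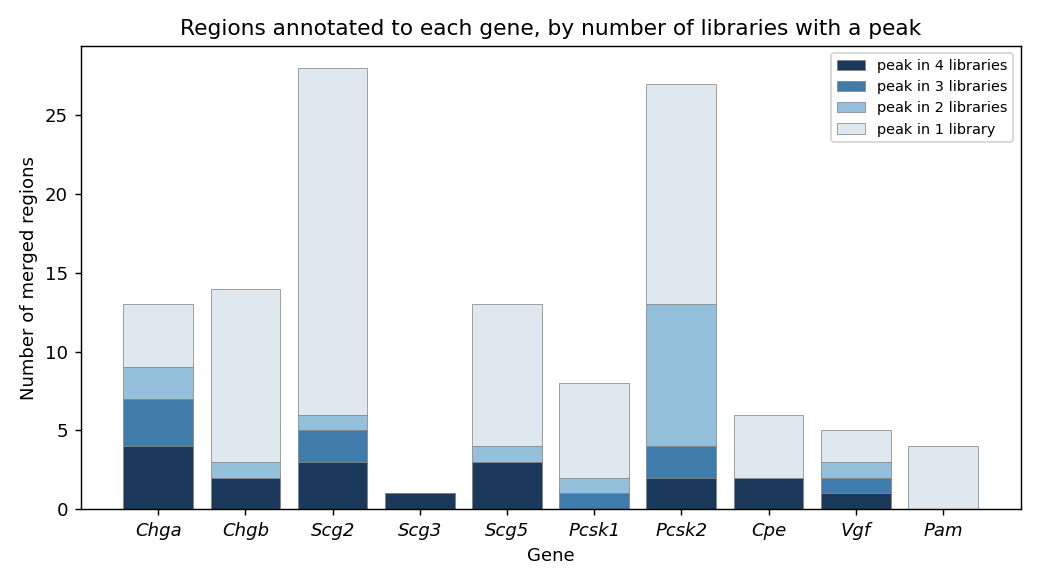
Number of merged regions annotated to each gene (bar height), divided by the number of libraries with a peak there (shade). *Chga* had 4 regions in all 4 libraries, *Scg2* and *Scg5* had 3 each, and most *Scg2* regions (22 of 28) had a peak in 1 library alone.

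A peak stood in all 4 libraries in 18 of the 119 regions (15.1%, against 11.7% of all regions). Strong peaks in all 4 libraries were found in 7 (5.88%, against 4.07% of all regions). Besides the promoters of *Chgb*, *Scg2*, *Scg3*, *Scg5* and *Cpe*, these were a site upstream of *Chga* and a site within *Cpe*. In all, 16 were strong in at least 1 library (13.4%, against 8.32% of all regions). Of these, 6 were strong in activin library 1 alone: 4 at *Chga* and 2 at *Vgf*. The share of all regions strong in that library alone was not counted. With activin library 2 left out, 5.41% of member regions were strong with activin alone, against 2.68% of all regions. Activin library 1 had the most strong peaks over all genes, 19819. Vehicle libraries 1 and 2 had 12377 and 12760, and activin library 2 had 15807.

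The site upstream of *Chga* lay at chr12:102550975-102551668, intergenic and 3.65 kb before the start site. The peaks were called at a −log10 q of 7.38 and 5.46 with vehicle, against 10.0 and 8.26 with activin, higher than at the *Chga* promoter in each of the 4 libraries. Reads numbered 292 and 317 with vehicle, against 426 and 307 with activin. Density was 3.24 and 2.55 with vehicle, against 3.08 and 3.10 with activin (2.89 ± 0.489 and 3.09 ± 0.0167, SD, n = 2), so the activin libraries fell within the vehicle range. After centring both activin libraries lay below both vehicle libraries, and the log2 difference was −0.17 ± 0.11 (SE; limma adjusted p = 0.654), and 0.11 without the centring on shared regions.

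*Chga* had further upstream regions that were strong in activin library 1 but not in activin library 2. At 8.57 kb before the start site, −log10 q was 4.17 and 2.64 with vehicle, against 9.27 and 3.16 with activin. Density there was 2.16 and 1.68 with vehicle, against 2.70 and 1.58 with activin, and the log2 change of −0.16 ± 0.22 (SE; limma adjusted p = 0.836) became 0.19 without activin library 2 and 0.11 without the centring on shared regions. At 22.2 kb before the start site vehicle library 1 had no peak, and −log10 q was 1.96, 6.79 and 4.36 in vehicle library 2 and activin libraries 1 and 2. At 29.7 kb the 4 libraries gave 2.09, 1.89, 5.42 and 2.82. The *Chga* gene thus had 4 regions in all 4 libraries, more than any other of the 10 genes.

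**Figure D4:**
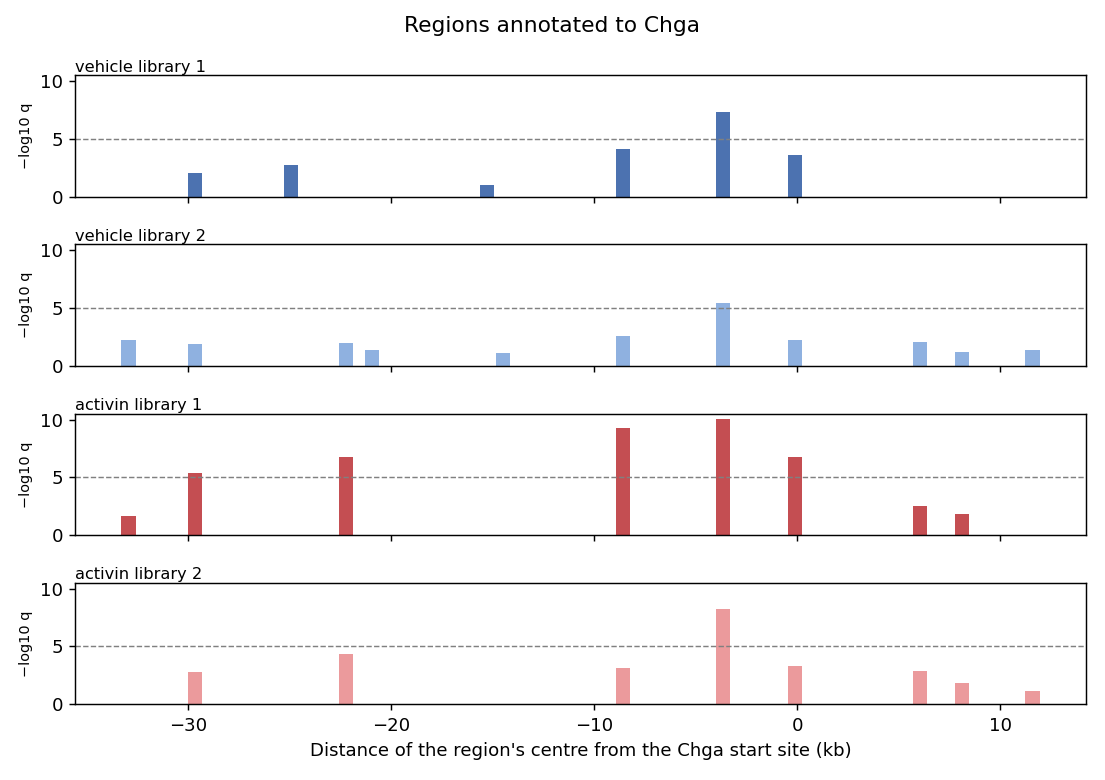
Regions annotated to *Chga* in each library, placed by the distance of the region's centre from the start site in kb (negative is upstream), with −log10 q as the height of the bar and the threshold of 5 dashed. The region 3.65 kb upstream is the highest bar in each of the 4 libraries. In activin library 1, which had the most strong peaks over all genes, 5 bars pass the threshold, against 1 in each other library.

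The site within *Cpe* lay at chr8:64620298-64621242 in intron 1 of 8, 72.3 kb into the gene. The −log10 q read 8.21 and 7.83 with vehicle, against 20.0 and 16.8 with activin. Reads numbered 229 and 304 with vehicle, against 522 and 312 with activin. Density was 2.00 and 1.77 with vehicle, against 2.69 and 2.55 with activin, means of 1.89 ± 0.166 and 2.62 ± 0.101 (SD, n = 2). The activin pair lay above the vehicle pair before and after centring, and the log2 change was 0.20 ± 0.12 (SE; limma adjusted p = 0.625). It was 0.47 with centring on all high-quality reads (limma adjusted p = 0.0789), and between 0.198 and 0.203 when any 1 library was left out. Of the 9 granule and processing regions in the shared set, this was the 1 in which both activin libraries were above both vehicle libraries; 20.9% of all shared regions were so placed.

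*Scg2* had a pair of sites beyond its 3′ side. At chr1:79406138-79406998, 33.5 kb from the start site, −log10 q was 6.90 and 3.27 with vehicle, against 6.94 and 2.55 with activin. Density was 2.04 and 1.69 with vehicle, against 1.62 and 1.27 with activin (1.87 ± 0.243 and 1.45 ± 0.246, SD, n = 2), lower in both activin libraries. The log2 change in the fit over all 28977 regions was −0.54 ± 0.20 (SE; limma adjusted p = 0.521), and 0.40 when reads were not divided by interval length. The intervals were 456 and 323 bases with vehicle, against 834 and 813 with activin. At 38.6 kb, −log10 q was 1.64 and 2.45 with vehicle, against 2.23 and 3.67 with activin. The centred log2 change there was −0.16 ± 0.21 (SE; limma adjusted p = 0.822), 0.11 without the centring on shared regions and 0.012 without activin library 1.

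Some peaks of these genes rested on almost no high-quality reads. A region 3.83 kb upstream of *Scg5*, at chr2:113832373-113832805, had −log10 q between 2.88 and 3.70 in the 4 libraries but 0, 6, 4 and 0 high-quality reads. Its log2 change of −0.30 ± 0.92 (SE; limma adjusted p = 0.940) had the widest error of the set. A *Pcsk1* region 116 kb from the start site had 4, 2 and 2 reads in the 3 libraries with a peak. The *Pcsk1* regions with a peak in 1 library alone had 45, 9, 0, 2, 1 and 36 reads, in order of distance. The last of them, at 126 kb, had the −log10 q of 6.63. Among other regions in 1 library alone, *Scg5* intron sites at 13.8 and 16.6 kb had 0 reads and an *Scg2* site at 98.8 kb had 2. The *Pcsk2* region 85.2 kb from its start site, strong in vehicle library 1, had 38, 51 and 20 reads in vehicle libraries 1 and 2 and activin library 1.

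Presence of a peak was compared between treatments without a test, since peaks were called per library. Both activin libraries and neither vehicle library had a peak in 2 of 119 regions (1.68%, against 1.35% of all regions). These were an intron 2 site of *Scg5* at 2.50 kb, with −log10 q of 2.33 and 1.62, and a site 138 kb from *Pcsk1*, with 2.52 and 1.42. Both vehicle libraries and neither activin library had a peak in 7 (5.88%, against 4.86% of all regions): 5 at *Pcsk2*, 1 at *Chgb* and 1 at *Scg2*. The *Pcsk2* region at 1.53 kb, with −log10 q of 1.3 and 1.5, was annotated as the promoter of another gene, ENSMUSG00000086171. None of those 7 had a −log10 q of at least 2 in both vehicle libraries, and neither treatment had a region that was strong in both of its libraries and in neither of the other (0.994% of all regions for activin and 0.0318% for vehicle). Without activin library 2, 6 regions were strong with activin alone (5.41%, against 2.68% of all regions), the 4 of *Chga* and 2 of *Vgf* named above.

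By −log10 q, both activin libraries were above both vehicle libraries in 10 of the 18 regions with a peak in each library, against 56.8% of all such regions. The 8 promoters gave 5, against 72.2% of all promoter regions. Neither count stood above the share over all regions. Start-site enrichment was higher in the activin libraries, and its part in these counts was not tested. The opposite order held in 1 of 18, a *Pcsk2* intron site at 19.4 kb (5.42% of all such regions).

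By centred density, 9 of the granule and processing regions were in the shared set and 0 of them passed limma's test at an adjusted p of 0.05, where 0 of 13871 regions did (0%). Among the 4 promoters, none had both activin libraries above both vehicle libraries (25.9% of shared promoters) and 1 had both below, that of *Chga* (14.7%). None of the 9 had an unadjusted p under 0.05, against 9.53% of all shared regions. The log2 change was positive in 3 and negative in 6, with a median of −0.14 against −0.00489 over all shared regions, and 0.14 without the centring on shared regions. The 4 promoters among them (*Chga*, *Chgb*, *Scg3* and *Cpe*) had a median of 0.00 against 0.03 over 8010 shared promoters. Both activin libraries lay below both vehicle libraries in 2 of the 9 (20.5% of all), both of them *Chga* regions. In the fit over all 28977 regions with a peak in each library, 0 of 18 passed (0% of all), and 2 had an unadjusted p under 0.05 (9.4% of all, and 4.63% lower), the *Scg2* site at 33.5 kb and the *Pcsk2* promoter, both lower in density and both reversed when reads were not divided by interval length. Both activin libraries were above both vehicle libraries in 3 of the 18 (24.4% of all), the *Scg2* and *Vgf* promoters and the intron site of *Cpe*, and below in 2 (18.5%). With 2 libraries against 2, the smallest exact permutation p for a single value is 0.333.

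**Figure D5:**
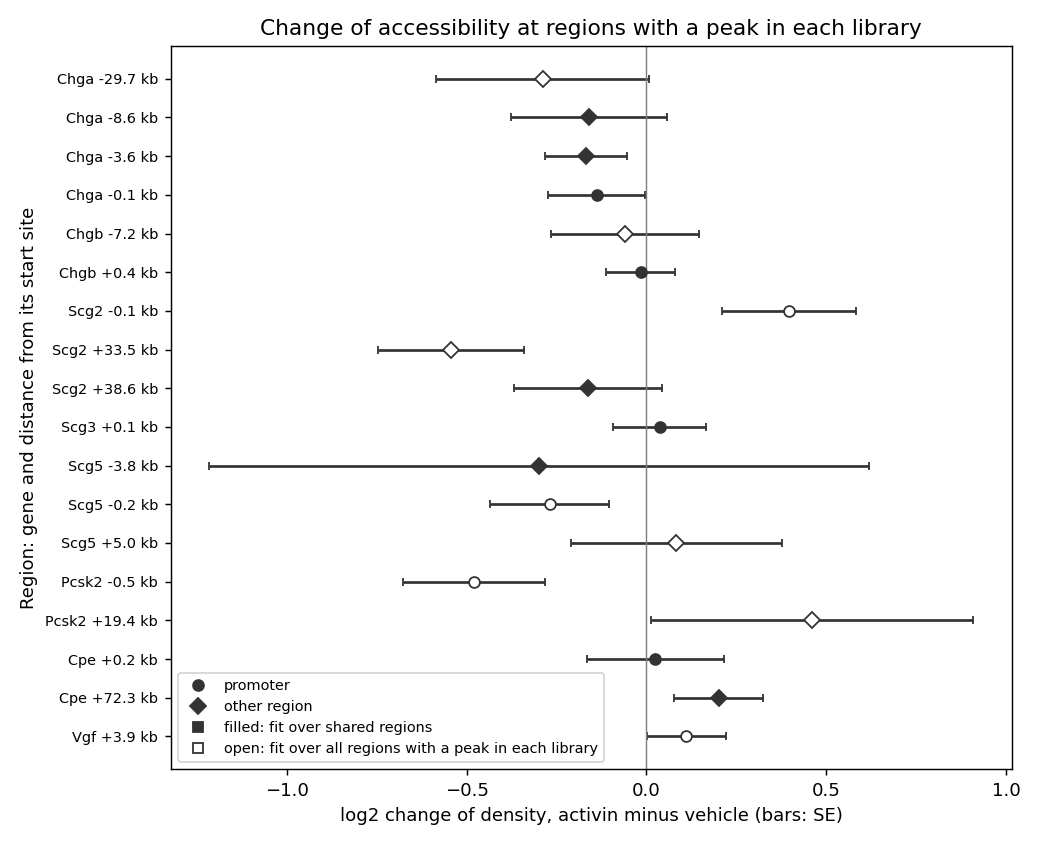
The log2 change of density from vehicle to activin (x axis, bars are the SE) for the 18 regions of these genes with a peak in each library. Circles are promoters and diamonds other regions; filled symbols are from the fit over shared regions and open ones from the fit over all regions with a peak in each library. Values run from −0.54 at *Scg2* +33.5 kb to 0.46 at *Pcsk2* +19.4 kb, and none passed the test. Each fit was centred on the median of its own regions, so filled and open symbols are not on the same scale.

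Other genes of the pathway were taken from a pair of lists. By the 1 kb limit used above, 23% of the 35667 genes with any peak had a start-site peak in all 4 libraries. Of 11 related proteases and their helpers, 4 had a start-site peak in all 4 libraries by the same 1 kb limit (*Pcsk4*, *Pcsk5*, *Pcsk7* and *Pcsk1n*, which encodes proSAAS, an inhibitor of PC1/3), and *Furin*, *Cpd*, *Cpm* and *Cpxm2* had none within 1 kb in any library. Of 30 genes of granule membrane, cargo and biogenesis, 15 had a start-site peak in all 4 libraries, among them *Ptprn* and *Ptprn2*, which encode granule membrane proteins, and 11 had none within 1 kb. Some of those without one had a promoter-annotated region farther off with a peak in each library: *Furin*, with −log10 q of 1.46 and 2.10 with vehicle, against 4.95 and 2.66 with activin, and *Hid1*, *Nucb2* and *Arfip2*. Of all 13871 shared regions, 6783 were higher with activin and 7088 lower. The proteases had 6 shared regions, 3 higher and 3 lower with activin, median log2 change 0.02. The granule genes had 23, 10 higher and 13 lower, median −0.01. None of these passed the test, and 2 had an unadjusted p under 0.05 (5.91% of all shared regions were lower at that p). These were the promoters of *Syt7*, which encodes a calcium sensor of exocytosis (log2 change −0.22 ± 0.09, SE; limma adjusted p = 0.498), and of *Syt4*, which encodes a granule synaptotagmin (−0.35 ± 0.15; limma adjusted p = 0.518). Next by p were the promoter of *Cadps*, which encodes a priming factor of dense-core granules (0.21 ± 0.10; limma adjusted p = 0.534), and a region of *Ica1*, which encodes a BAR-domain protein of the Golgi and immature granules (−0.31 ± 0.15; limma adjusted p = 0.539).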

How the data were processed

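The authors deposited a broad peak list, its annotation and a quality report for each library. Per the submitters' processing notes, Bowtie2, MACS2 and HOMER were used with GRCm38 (mm10); settings are not given in the sources used here. The deposited lists give each peak's score, fold (a ratio over background) and −log10 p and −log10 q, called per library, so presence of a peak moves with depth and background. Per the file headers, ataqv 1.3.1 counted the high-quality autosomal reads over each peak of the library's own list.

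Members were the peaks whose gene name was 1 of the 10, plus those of other names merged with them. The members and lists were chosen with earlier results of these data known. Peaks overlapping by 1 bp were merged. For shared regions, log2 of (reads + 1) per kb was centred on the library median and tested with limma 3.58.1 (R 4.3.3; lmFit, eBayes with trend, Benjamini-Hochberg adjustment over all regions, threshold 0.05). A log2 change understates that of regions with few reads. All 10 genes are named. The rule for regions took promoters with peaks in at least 2 libraries, those strong in all 4 libraries, and at most 5 more by smallest p. Of the related genes it took 4 by smallest p. Further regions and related genes, such as *Chga* −22.2 kb, *Chga* −29.7 kb, *Vgf* −1.23 kb and *Furin*, fell outside that rule. They were picked with their values known. In a simulation over 13871 regions, 184 of 200 regions changed by 1 (log2) were called, with 10 false calls. Smaller changes, such as those reported here for the 10 genes, and the fit over all 28977 regions were not simulated. With no change simulated, 4.83% of regions had an unadjusted limma p under 0.05, against 9.53% of shared regions in the data. Alternatives were centring, pseudocount, filter, interval length, region definition, thresholds, a replicate block and leaving out each library. Promoter windows are from RefSeq (GRCm38.p6).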

Additional observations from a re-analysis of the deposited data

How the results depend on the processing

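None of the granule and processing regions passed the test under any alternative. Over all shared regions, calls numbered 605 with centring on all high-quality reads, 39 without division by interval length, 1 with a pseudocount of 10 reads, 4 with the replicate block (0 of them members; same-numbered libraries' deviations correlated at −0.0252, and the labels do not say what a number shares), and 0 to 9 with 1 library left out (9 without activin replicate 2). The members' median log2 change was 0.14 with centring on all high-quality reads, −0.042 over all regions with a peak in each library, and −0.12 to 0.13 with 1 library left out. Of 154 values of single regions under the alternatives, 126 kept their direction and 28 reversed.

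With centring on all high-quality reads, the *Scg2* +38.6 kb region gave 0.11, *Chga* −8.57 kb 0.11, *Chga* −3.65 kb 0.11, the *Chga* promoter 0.14, the *Chgb* promoter 0.26 and *Chgb* −7.19 kb 0.11. The *Chgb* promoter gave 0.041 without division by length and 0.090 over all regions. Without division by length in the fit over all regions, an alternative chosen after seeing the data, *Scg2* +33.5 kb gave 0.40, *Chga* −29.7 kb 0.38, the *Scg5* promoter 0.43, the *Pcsk2* promoter 1.18 and *Pcsk2* +19.4 kb −0.90. Leaving out 1 library gave −0.097 to 0.065 at the *Chgb* promoter, −0.28 to 0.33 at the *Cpe* promoter, −0.058 to 0.13 at the *Scg3* promoter, −0.34 to 0.012 at *Scg2* +38.6 kb, −0.51 to 0.19 at *Chga* −8.57 kb, −0.63 to 0.053 at *Chga* −29.7 kb, −1.39 to 0.79 at *Scg5* −3.83 kb, −0.32 to 0.49 at *Scg5* +4.98 kb, −0.17 to 0.053 at *Chgb* −7.19 kb and −0.12 to 1.05 at *Pcsk2* +19.4 kb.

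Shares below are of the members, against all regions under the same setting. For members within 50 kb the comparison is with all regions at any distance. Regions with a peak in all 4 libraries numbered 7 at a −log10 q of at least 5 (43.8%, against 48.9%). With 1 library left out they numbered 18 to 24 (17.1% to 24%, against 14.3% to 20.7%). Those with a peak with activin alone numbered 0 at 5 (0%, against 12%) and 5 with equal numbers of peaks per library (6.33%, against 3.42%). They numbered 1 within 50 kb (1.22%, against 1.35%) and 3 to 13 with 1 library left out (2.86% to 11.7%, against 2.23% to 12%). Those with vehicle alone numbered 0 at a −log10 q of 2 (against 1.48%) and 0 at 5 (against 0.381%). They numbered 4 when merging needed 50% overlap (3.2%, against 3.96%), 2 with equal numbers of peaks (2.53%, against 2.65%) and 4 within 50 kb (4.88%, against 4.86%). With 1 library left out they numbered 8 to 50. There were 50 without vehicle replicate 1 (47.6%, against 50.4%) and 21 without vehicle replicate 2 (28%, against 25.2%). Strong regions in all 4 libraries numbered 13 at a threshold of 2 (37.1%, against 30.8%) and 7 with any 1 library left out (6.31% to 9.33%, against 4.45% to 7.65%). Those strong with activin alone numbered 3 at that threshold (8.57%, against 4.93%) and 0 to 6 with 1 library left out (0% to 5.41%, against 1.32% to 2.68%). Those with vehicle alone then numbered 0 to 1 (0% to 1.33%, against 0.0481% to 0.314%). The cause of these changes was not tested.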

Other observations

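Of the related proteases, a region in intron 2 of 20 of *Pcsk5*, which encodes PC5/6, had the smallest p of the lists in the fit over all regions with a peak in each library; it was singled out after its values were seen. It lay at chr19:17775399-17776538. The peak reached a −log10 q of 13.0 and 12.4 with vehicle, against 28.5 and 23.8 with activin. High-quality reads numbered 314 and 436 over intervals of 945 and 1140 bases with vehicle, and 433 and 320 over 433 and 429 bases with activin. Read numbers thus overlapped between treatments. The 4 intervals shared 31.8% of their union, so the change of density below does not compare the same bases. The log2 change was 1.08 ± 0.13 (SE; limma adjusted p = 0.30), with the called interval shorter in both activin libraries.

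Within *Scg3*, a region at chr9:75672524-75673260 in intron 6 of 11 was named for *Gm37871* and had a peak in all 4 libraries. Libraries gave a −log10 q of 3.09 and 2.06 with vehicle, against 6.73 and 4.54 with activin, and its density was 1.60, 0.976, 1.40 and 1.16. It was also singled out after its values were seen.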
